A study of Homo sapiens with 6 samples.

Results

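The genes of HLA class I presentation described here are the heavy chains HLA-B, HLA-C, HLA-E and HLA-F, the light chain B2M, the peptide transporter subunits TAP1 and TAP2, the loading factor TAPBP (tapasin) and the transactivator NLRC5. They were found by gene symbol and make up 9 of the 17862 genes in the expression table. The 9 genes were chosen with the values of these libraries in shMTHFD2 and shNC cells already known. Their differences between the groups are therefore given as a description, and no test on them is used as support. All 9 passed the filter on low counts, so each of them is accounted for below.

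RNA was sequenced from SCC-9 cells, a long-established line from a human squamous carcinoma of the tongue, in 3 libraries of cells with a short hairpin RNA against MTHFD2 (shMTHFD2) and 3 libraries of control cells (shNC). MTHFD2 works in the folate cycle of mitochondria, and the study's title concerns its effect on the stability of the transcription factor FOXO1. Both groups were cultured in DMEM/F12 with 10% serum and 400 ng/mL hydrocortisone. The treatment label describes knockdown by hairpin plasmids, while the design text calls the cells knock-out; the number of hairpins, clones or pools is not given in the sources used here, and a single line was used. The design text counts 3 biological replicates per condition without saying how the cultures were separated, so the p-values below reflect only how these libraries spread.

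Every nucleated cell can show peptides from its own proteins on HLA class I molecules, which cytotoxic T cells and natural killer cells read. Peptides made largely by the proteasome are carried into the endoplasmic reticulum by the TAP1-TAP2 transporter, and tapasin holds the transporter next to an empty heavy chain paired with B2M until a fitting peptide binds. The genes share promoter elements for NF-kB, for interferon regulatory factors and for an assembly of RFX, CREB/ATF and NF-Y factors to which NLRC5 is recruited, and interferon gamma is a known inducer of the pathway. Reduced class I expression is a known route by which carcinomas, those of the head and neck among them, escape T cells.

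MTHFD2 itself had 38.5, 29.0 and 58.5 TPM (a transcript level scaled by gene length and library) in the 3 shMTHFD2 libraries, against 160.4, 168 and 149.6 TPM in the 3 shNC libraries. The shMTHFD2 libraries thus held 24.2, 18.2 and 36.7% of the shNC mean, with replicate 2 the lowest and replicate 3 the highest. MTHFD2 fell by 1.95 on the log2 scale (SE 0.21, adjusted p = 0.00924, edgeR's quasi-likelihood test with Benjamini-Hochberg adjustment over all genes). Leaving out shMTHFD2 replicate 1 or shNC replicate 1, 2 or 3 ended this call (edgeR adjusted p = 0.0732, 0.086, 0.0918 and 0.0668), with the log2 fold change between -2.19 and -1.74 in all 6 such fits. The libraries held 18676999 to 19838989 estimated counts, and 16129 to 16858 genes were above 0. Replicates differed more among the shMTHFD2 libraries than among the shNC libraries: the correlation of log2 counts scaled to library size across genes was 0.958 to 0.984 within shMTHFD2 and 0.992 to 0.994 within shNC.

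The labelled cell type was checked against markers. KRT14, a keratin of basal squamous epithelium, had 3744, 3062 and 2666 TPM in shMTHFD2 libraries and 3288, 2957 and 3606 TPM in shNC libraries. The 10 squamous markers listed summed to 10628, 8553 and 8871 TPM in shMTHFD2 and 9889, 9232 and 10197 TPM in shNC. EdgeR called 0 of the 10, against 5.43% of all genes. By CPM, 2 of the 10 were lower in shMTHFD2 without overlap of the groups and 0 higher, against 19.7 and 18.1% of all genes. Of 15 leukocyte markers 10 were in the table, with a summed level of 15.2 to 19.3 TPM in shMTHFD2 and 17.5 to 27.4 TPM in shNC. CD14, a co-receptor for bacterial lipopolysaccharide, made up most of that sum at 10.95 to 15.8 TPM in shMTHFD2 and 14.3 to 23.6 TPM in shNC, and 7 of the 10 were under 1 TPM in all 6 libraries. The summed level of 8 fibroblast markers was 13.0 to 24.5 TPM in shMTHFD2 and 6.16 to 8.92 TPM in shNC, most of it COL1A1 (adjusted p = 0.0654, edgeR), and 5 of the 8 were under 1 TPM in all 6 libraries. The 7 endothelial markers, PECAM1 among them, were under 1 TPM in all 6 libraries. Since the samples are bulk RNA, a smaller number of cells with a gene and less of its RNA per cell cannot be told apart.

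Promoter sequence is shown for 5 of the genes, because proximal elements of this kind are what the class I genes are known to share, and the sets differ between the genes. The stretches come from the RefSeq promoter table of GRCh38.p14, which covers 250 bases before to 50 after each start and held 7 of the 9 genes; HLA-E and NLRC5 were not among them. They lie at chr6:31357223-31357364 on the minus strand for HLA-B, chr6:31272136-31272251 on the minus strand for HLA-C, chr6:29723270-29723389 on the plus strand for HLA-F, chr15:44711365-44711480 on the plus strand for B2M and chr6:32853759-32853846 on the minus strand for TAP1. Each is written in the direction of its gene, and capitals mark matches on either strand to the letters GGGNNTTNCC (an NF-kB-like element), GAAANNGAAA or its shorter form AANNGAAA (elements like those bound by interferon regulatory factors), TGACG (the core bound by CREB/ATF factors) and CCAAT (the box bound by NF-Y).
HLA-B: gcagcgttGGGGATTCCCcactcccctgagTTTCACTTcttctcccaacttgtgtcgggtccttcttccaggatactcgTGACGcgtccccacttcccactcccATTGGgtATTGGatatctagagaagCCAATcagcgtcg
HLA-C: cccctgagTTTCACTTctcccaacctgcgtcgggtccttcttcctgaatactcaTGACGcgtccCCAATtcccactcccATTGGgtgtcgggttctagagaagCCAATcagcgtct
HLA-F: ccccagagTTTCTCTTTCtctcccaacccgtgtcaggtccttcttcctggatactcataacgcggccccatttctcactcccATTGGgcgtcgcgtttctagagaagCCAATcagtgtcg
B2M: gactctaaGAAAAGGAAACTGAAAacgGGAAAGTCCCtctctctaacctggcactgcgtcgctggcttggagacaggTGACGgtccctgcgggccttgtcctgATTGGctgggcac
TAP1: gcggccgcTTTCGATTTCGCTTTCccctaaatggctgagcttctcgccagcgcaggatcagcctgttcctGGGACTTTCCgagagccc

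In the table's 35116 promoters, GGGNNTTNCC was matched in 5.68%, and it was present in HLA-B, B2M, TAP1 and TAPBP among the 7 genes. HLA-C and HLA-F had no match to it in the window. GAAANNGAAA was matched in 3.57% of promoters and in HLA-F, B2M, TAP1, TAP2 and TAPBP, while HLA-B and HLA-C had the shorter AANNGAAA, which every GAAANNGAAA match also contains. The shorter form was matched in 22.8% of promoters and in all 7 genes. TAP1 has a second promoter in the table, at chr6:32852712-32853011, which held no match to any of these letters. TGACG was matched in 24.6% of promoters and in HLA-B, HLA-C, B2M and TAP2, and CCAAT in 34.6% of promoters and in HLA-B, HLA-C, HLA-F, B2M and TAP1, where the match of TAP1 lies outside the stretch shown. A match is a description of letters, not of binding, and a missing match says nothing about a factor.

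The 4 heavy chains and B2M were higher in every shMTHFD2 library than in every shNC library, and HLA-B differed most. HLA-B, a classical heavy chain that presents peptides to CD8 T cells, averaged 237 ± 52.0 TPM in shMTHFD2 and 73.5 ± 5.93 TPM in shNC (SD, n = 3 each), a ratio of 3.23. HLA-F, HLA-E and HLA-C had ratios of 1.94, 1.58 and 1.56. The light chain B2M had 1.26, TAP1 and TAPBP had 1.10 and 1.11, and TAP2 had 0.832. The transactivator NLRC5 had a ratio of 1.70 at a level of only a few TPM.

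**Figure D1:**
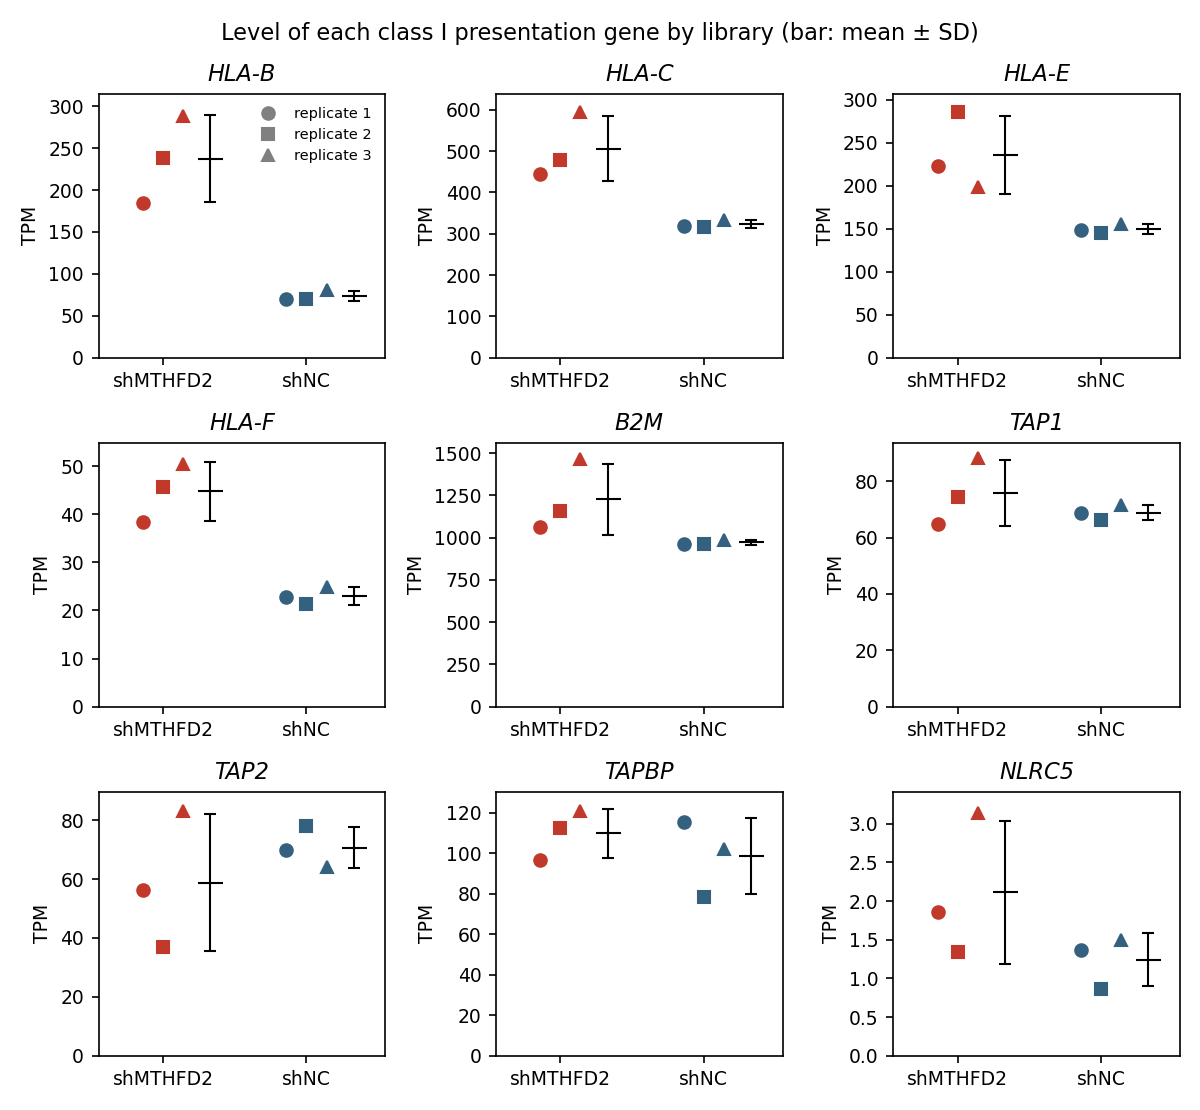
Level of each of the 9 genes in TPM (vertical axis, from 0) in the 3 shMTHFD2 libraries (red, left) and the 3 shNC libraries (blue, right), with the mean and SD of each group as a black bar. The groups do not overlap for the 4 heavy chains and B2M, and overlap for TAP1, TAP2, TAPBP and NLRC5.

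HLA-B had 184, 239 and 288 TPM in the shMTHFD2 libraries, against 69.6, 70.5 and 80.3 TPM in the shNC libraries. The lowest shMTHFD2 library was far above the highest shNC library, and replicate 3 was the highest in each group. The fitted log2 fold change was 1.63 (SE 0.16), on 2635 to 3991 estimated counts per library in shMTHFD2 and 975 to 1174 in shNC.

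HLA-C, a classical heavy chain and a ligand of inhibitory receptors on natural killer cells, had 445, 478 and 595 TPM in shMTHFD2, against 319.7, 317 and 334 TPM in shNC. The groups did not overlap, and shMTHFD2 replicate 3 was again the highest. Its log2 fold change was 0.59 (SE 0.11), smaller than that of HLA-B, although its level was higher than that of HLA-B in all 6 libraries.

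HLA-E presents leader peptides of other class I chains to the receptor NKG2A. It had 224, 286 and 198 TPM in shMTHFD2, against 148, 145 and 156 TPM in shNC. The groups did not overlap, but the order within shMTHFD2 differed from that for HLA-C: replicate 2 was the highest and replicate 3 the lowest. The log2 fold change was 0.61 (SE 0.16), with 0.54, 0.92 and 0.30 log2 CPM (counts scaled to library size) above the shNC mean in replicates 1, 2 and 3.

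HLA-F, a less abundant class I chain that can reach the surface without peptide, had 38.3, 45.6 and 50.3 TPM in shMTHFD2, against 22.8, 21.3 and 24.95 TPM in shNC. The groups did not overlap. In log2 CPM the shMTHFD2 libraries lay 0.77, 1.00 and 0.99 above the shNC mean, closer together than for any of HLA-B, HLA-C and HLA-E. The log2 fold change was 0.93 (SE 0.12).

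B2M, the invariant light chain that every class I heavy chain needs to reach the surface in its usual form, was the most abundant of the 9 genes and ranked 132 of 17862 by mean TPM. It had 1060.35, 1157 and 1463 TPM in shMTHFD2, against 964, 964 and 989 TPM in shNC. The groups did not overlap, yet replicate 1 was close to the shNC libraries and replicate 3 well above them. The log2 fold change was 0.29 (SE 0.12).

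The transporter and loading genes did not separate the groups. TAP1 had 64.9, 74.5 and 88.1 TPM in shMTHFD2, against 68.8, 66.1 and 71.75 TPM in shNC, with a log2 fold change of 0.07 (SE 0.11). In TPM, 1 shMTHFD2 library was below all shNC libraries and the other 2 were above them. In CPM, TAP1 in shMTHFD2 replicate 2 (92.8) was below shNC replicate 3 (93.6). TAP2 had 56.3, 36.8 and 83.1 TPM in shMTHFD2, against 70.0, 77.9 and 63.9 TPM in shNC, with a log2 fold change of -0.30 (SE 0.22). Its shMTHFD2 libraries lay on both sides of the shNC range, and replicate 2, the lowest for TAP2, was the highest for HLA-E. TAPBP had 96.4, 112 and 121 TPM in shMTHFD2, against 116, 78.4 and 102 TPM in shNC, with a log2 fold change of 0.10 (SE 0.15). Here the shNC libraries spread more widely than the shMTHFD2 ones.

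NLRC5, the transactivator that drives class I promoters from inside the nucleus, was the least abundant of the 9 genes and ranked 11829 by mean TPM. It had 1.86, 1.34 and 3.14 TPM in shMTHFD2, against 1.37, 0.86 and 1.5 TPM in shNC. These levels rest on 86, 66 and 142 counts in shMTHFD2 and 57, 39 and 68 counts in shNC. The groups overlapped, with replicate 3 highest in each, and the log2 fold change was 0.81 (SE 0.33).

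Counted across the 9 genes, edgeR called 3 higher in shMTHFD2 (HLA-B, HLA-C and HLA-F) and 0 lower, where over all 13710 tested genes 5.43% were called in either direction and 2.97% were called higher. At an unadjusted p under 0.05, 6 of the 9 were higher and 0 lower, against 28.7% of all tested genes in either direction. DESeq2 called 4, adding HLA-E, against 15.0% of all genes, and limma-voom called 3, against 4.88%. By CPM, 5 of the 9 had groups that did not overlap with shMTHFD2 higher, against 18.1% of all genes, and 0 had shMTHFD2 lower, against 19.7%. The median log2 fold change was 0.59 over the 9 genes and 0.01 over all tested genes. Because the genes were chosen with this contrast known, nothing is read from these counts.

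Single libraries weighed on the calls more than on the values. Without shMTHFD2 replicate 1, HLA-B alone was called, against 0.194% of all genes. Without replicate 2 the called genes were the 4 heavy chains and NLRC5, against 14.2% of all genes, and without replicate 3 they were the 4 heavy chains, higher, and TAP2, lower, against 26.3%. Leaving out shNC replicate 1, 2 or 3 ended every call among the 9, where 0.00716, 0.00716 and 0.0358% of all genes were called. The log2 fold change of HLA-B was between 1.51 and 1.77 in these fits and that of HLA-F between 0.90 and 1.00, while that of TAP2 was between -0.55 and -0.07 and that of NLRC5 between 0.48 and 1.03.

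**Figure D2:**
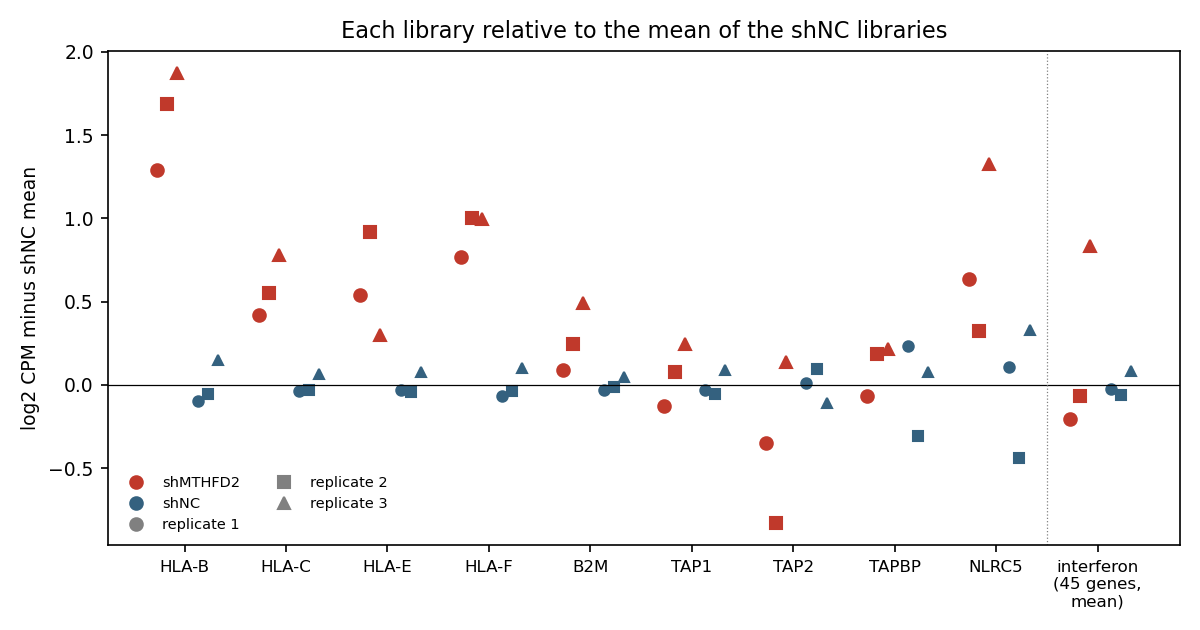
Difference of each library from the mean of the shNC libraries in log2 CPM (vertical axis) for the 9 genes and for the mean of 45 interferon response genes, with shMTHFD2 in red left of shNC in blue and the replicate number as the symbol. HLA-B lies 1.29 to 1.87 above the shNC mean in all 3 shMTHFD2 libraries, whereas the interferon mean is above it in shMTHFD2 replicate 3 alone of the shMTHFD2 libraries.

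The 9 genes thus differed among themselves by library. Averaged over the 9 genes, the shMTHFD2 libraries lay 0.36, 0.46 and 0.71 log2 CPM above the shNC mean. Replicate 3 was the highest shMTHFD2 library for HLA-B, HLA-C, B2M, TAP1, TAP2, TAPBP and NLRC5. For HLA-F replicates 2 and 3 were nearly level, and for HLA-E replicate 3 was the lowest. As a root mean square difference of centred log2 CPM over the 6 libraries, the closest pair of genes was B2M and TAP1 at 0.111, followed by HLA-C and B2M at 0.154. The most distant pair was HLA-B and TAP2 at 1.03. These distances describe 6 libraries that every pair shares.

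The order of levels, in TPM and so per length of transcript, changed around HLA-B. In shMTHFD2 libraries it was B2M, HLA-C, HLA-B, HLA-E, TAPBP, TAP1, TAP2, HLA-F and NLRC5, in which the ranges of HLA-B and HLA-E, of TAP1 and TAP2 and of TAP2 and HLA-F overlapped. In shNC libraries it was B2M, HLA-C, HLA-E, TAPBP, HLA-B, TAP2, TAP1, HLA-F and NLRC5, in which TAPBP and HLA-B, HLA-B and TAP2, and TAP2 and TAP1 overlapped. By mean, HLA-B was therefore level with HLA-E in shMTHFD2 cells and with the transporter genes in shNC cells. By library, HLA-B was below HLA-E in shMTHFD2 replicate 1 (184 and 224 TPM) and replicate 2 (239 and 286 TPM). In replicate 3 HLA-B was above HLA-E (288 and 198 TPM). The summed level of the 9 genes was 2171, 2430.26 and 2889.74 TPM in shMTHFD2, against 1779.85, 1742 and 1823 TPM in shNC.

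The make-up of the heavy chain transcripts was computed over HLA-B, HLA-C, HLA-E and HLA-F alone. Other class I heavy chains are not in this sum, so the shares are not those of all heavy chain RNA. These 4 summed to 891, 1048 and 1132 TPM in shMTHFD2, against 560.33, 554 and 595 TPM in shNC. HLA-B made up 20.7, 22.8 and 25.5% of that sum in shMTHFD2, against 12.4, 12.7 and 13.5% in shNC, so its share was higher in all 3 shMTHFD2 libraries. HLA-C made up 49.9, 45.6 and 52.6% in shMTHFD2, against 57.1, 57.2 and 56.1% in shNC, a lower share in all 3 shMTHFD2 libraries. HLA-F made up 4.36 ± 0.0775% in shMTHFD2 and 4.04 ± 0.176% in shNC (SD, n = 3 each). HLA-E made up 25.1, 27.3 and 17.5% in shMTHFD2, against 26.5, 26.2 and 26.2% in shNC, so replicate 3 held a smaller HLA-E share than any other library. Reads from near-identical stretches of the class I genes and their pseudogenes could have been divided between them by the authors' counting, so levels and shares of single heavy chains are uncertain to that extent.

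**Figure D3:**
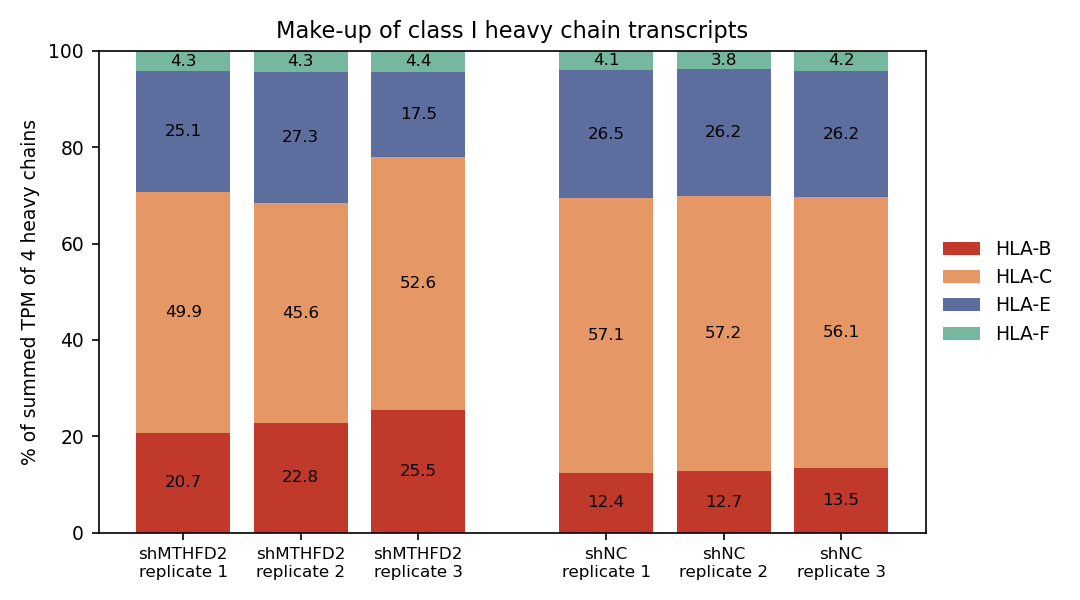
Share of HLA-B, HLA-C, HLA-E and HLA-F (colours) in their summed TPM (vertical axis, percent), 1 bar per library, with shMTHFD2 left of shNC. HLA-B takes 20.7 to 25.5% in shMTHFD2 libraries and 12.4 to 13.5% in shNC libraries, and HLA-C takes less in shMTHFD2 libraries than in shNC libraries.

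Among partner transcripts, B2M and the 4 heavy chains did not keep their ratio. For each TPM of the 4 heavy chains HLA-B, HLA-C, HLA-E and HLA-F there were 1.19, 1.10 and 1.29 TPM of B2M in shMTHFD2 libraries, against 1.72, 1.74 and 1.66 TPM in shNC libraries. The shMTHFD2 libraries were all lower, since these heavy chains were further above their shNC level than B2M was. Other class I heavy chains are left out, so the ratio does not set B2M against all heavy chain RNA. HLA-B stood at 0.414, 0.499 and 0.485 of HLA-C in shMTHFD2, against 0.218, 0.223 and 0.241 in shNC. The ratio of TAP1 to TAP2, the paired chains of a single transporter, was 1.15, 2.02 and 1.06 in shMTHFD2, against 0.983, 0.849 and 1.12 in shNC, where the groups overlapped and shMTHFD2 replicate 2 stood apart.

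The rest of the class I pathway was read from a list of 46 genes set out by role, of which 45 were tested and HLA-G, under 1 TPM in all 6 libraries, was not. EdgeR called 0 of the 45 in either direction, against 5.43% of all genes, so the 0 is not read as a difference from the 9 genes. At an unadjusted p under 0.05, 5 were higher and 7 lower, which together is close to the background of 28.7%. Limma-voom called 0, against 4.88% of all genes. DESeq2 called 3 higher, IFNGR1 and MARCHF9 among them, and 3 lower (THOP1, NFYC and TMEM127), against 15.0% of all genes. In all, 21 of the 45 log2 fold changes were above 0, with a median of -0.03 and a range of -0.62 to 0.84. Without shMTHFD2 replicate 2 edgeR called 6 of them, against 14.2% of all genes, and without replicate 3 it called 13, of which 5 were higher and 8 lower, against 26.3% of all genes.

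Among the loading chaperones, calreticulin, CALR, had 1110.00, 985 and 1181 TPM in shMTHFD2 and 1134, 1121 and 1137 TPM in shNC (log2 fold change -0.10, SE 0.09). Of 4 such chaperones and editors, 3 had values below 0 and none was called. NPEPPS, the most abundant of 6 peptide-trimming enzymes, had a log2 fold change of 0.12 (SE 0.09).

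PSMB8 and PSMB9, immunoproteasome subunits that shape the peptides class I molecules bind, sit beside the transporter genes on chromosome 6. PSMB9 had 66.8, 61.0 and 91.2 TPM in shMTHFD2, against 64.3, 63.9 and 61.6 TPM in shNC, and PSMB8 had 77.5, 59.5 and 78.55 TPM in shMTHFD2, against 72.0, 70.0 and 77.8 TPM in shNC. Both overlapped between the groups. PSME1, a subunit of the proteasome activator and the most abundant gene of this role, had 323, 345 and 269 TPM in shMTHFD2, against 236, 226 and 253 TPM in shNC (log2 fold change 0.34, SE 0.13, adjusted p = 0.141, edgeR). Its groups did not overlap in TPM but did in CPM.

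Of 11 factors that bind or induce class I promoters, 5 had log2 fold changes above 0 and 6 below, with a median of -0.13 and none called. In the interferon gamma receptor chain the most abundant gene was IFNGR2 (log2 fold change -0.29, SE 0.11, adjusted p = 0.133, edgeR). The log2 fold change of RELA, an activating NF-kB subunit, was 0.13 (SE 0.15), and that of NFKB1, the other NF-kB gene listed, was -0.45 (SE 0.20, adjusted p = 0.181, edgeR), lower in all 3 shMTHFD2 libraries by CPM. The 3 core subunits of Polycomb repressive complex 2, known to silence class I genes in some tumours, lay below 0, with EZH2 at -0.43 (SE 0.24, adjusted p = 0.273, edgeR).

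Genes that govern how long class I molecules stay at the surface were listed too. MARCHF9, a membrane ubiquitin ligase with class I molecules among its known substrates, had 22.8, 27.0 and 23.6 TPM in shMTHFD2, against 15.2, 13.7 and 17.6 TPM in shNC. The groups did not overlap, and the log2 fold change was 0.61 (SE 0.14), just short of the threshold (adjusted p = 0.0512, edgeR) but past it with DESeq2 size factors, upper quartile scaling or total counts. SUSD6, part of a complex with TMEM127 and WWP2 that removes class I molecules, was the most abundant of these 6 genes (log2 fold change -0.21, SE 0.11, adjusted p = 0.25, edgeR).

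**Figure D4:**
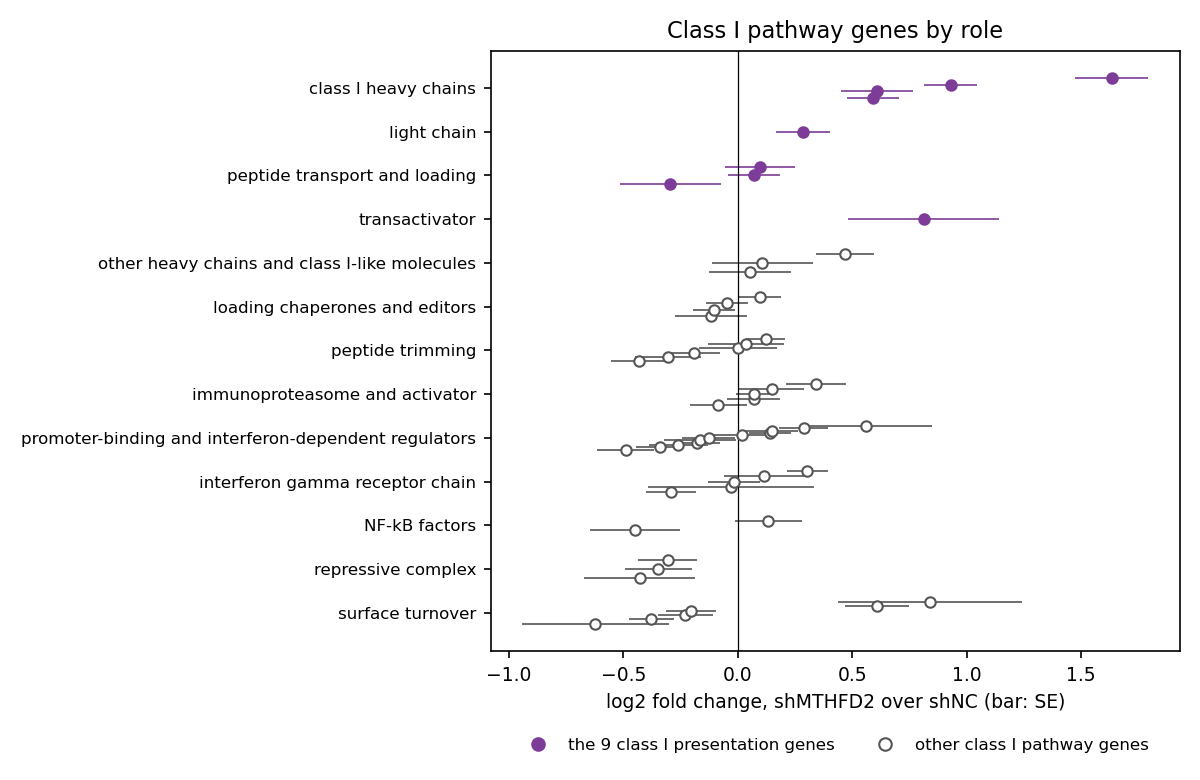
Log2 fold change of shMTHFD2 over shNC with its SE (horizontal axis) for the 9 class I presentation genes (filled) and 45 other tested pathway genes (open), grouped by role. Among the 9 genes, the heavy chains lie at 0.59 to 1.63 and the transporter and loading genes at -0.30 to 0.10. The other pathway genes lie between -0.62 and 0.84, and edgeR called none of them, against 5.43% of all tested genes.

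Interferon induces the class I genes, so 46 interferon response genes, 45 of them tested, were set beside them. EdgeR called 2 higher and 0 lower, against the background of 5.43% in either direction. At an unadjusted p under 0.05, 12 were higher and 1 lower, against 28.7% of all genes, and DESeq2 called 7 higher and 1 lower, against 15.0%. Taken in either direction these counts are close to the background and are not read as a result about the list. Of the 45 log2 fold changes 31 were above 0, with a median of 0.21, where the median of all tested genes was 0.01. IFIH1, a sensor of double-stranded RNA, had 30.6, 40.4 and 44.8 TPM in shMTHFD2, against 20.4, 19.9 and 21.4 TPM in shNC (log2 fold change 0.85, SE 0.14, adjusted p = 0.0258, edgeR). GBP2, a guanylate-binding protein of cell-autonomous defence, had 2.18, 2.58 and 3.10 TPM in shMTHFD2, against 1.09, 0.59 and 0.96 TPM in shNC (log2 fold change 1.53, SE 0.27, adjusted p = 0.0299, edgeR). Both rose without overlap of the groups, but leaving out any shNC library ended both calls (edgeR adjusted p of 0.105 to 0.167 for IFIH1 and 0.111 to 0.154 for GBP2), and that of GBP2 also ended without shMTHFD2 replicate 1 (0.0959). PARP14 (log2 fold change 0.59, adjusted p = 0.0509) and IFITM1 (0.94, adjusted p = 0.0568) came next in edgeR and did not pass.

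The mean of the interferon genes was not raised in all 3 shMTHFD2 libraries. By CPM, 8 of the 45 had groups that did not overlap with shMTHFD2 higher, against 18.1% of all genes. That count is close to the share of all genes and is not read as a result about the interferon genes. For 1 gene shMTHFD2 was lower without overlap, against 19.7%. The mean of the 45 genes lay at -0.21, -0.07 and 0.83 log2 CPM relative to the shNC mean in shMTHFD2 replicates 1, 2 and 3. Without replicate 3, edgeR called 4 of these genes higher and 12 lower, against 26.3% of all genes called. In the same fit without replicate 3 the log2 fold change of HLA-B was 1.51, of HLA-C 0.50, of HLA-E 0.76 and of HLA-F 0.91. The part of the interferon pattern in the class I values was not tested. For B2M it was 0.18, for TAP1 -0.01 and for NLRC5 0.48 without replicate 3.

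Class II genes present antigens taken up from outside and share the RFX and NF-Y promoter module with class I. Of 13 such genes 7 were tested, and CD74, the invariant chain that guards the class II groove, was called, against 5.43% of all genes. At an unadjusted p under 0.05, 5 of the 7 were higher and 0 lower, against 28.7% of all genes, and 6 of the 7 log2 fold changes were above 0. CD74 rose to 19.6, 22.3 and 30.5 TPM in shMTHFD2, against 5.53, 5.06 and 5.54 TPM in shNC (log2 fold change 2.14, SE 0.18, adjusted p = 0.00575, edgeR). Without shNC replicate 1, 2 or 3 its log2 fold change was 2.14, 2.11 and 2.18, and edgeR no longer called it (adjusted p = 0.0704, 0.0675 and 0.0607). HLA-DPA1 had 1.11, 0.92 and 1.91 TPM in shMTHFD2, against 0.46, 0.32 and 0.50 TPM in shNC (log2 fold change 1.56, adjusted p = 0.0643, edgeR). It had 18, 14 and 29 counts in shMTHFD2 and 7, 5 and 8 in shNC. HLA-DPA1 thus passed the filter on low counts only through the shMTHFD2 libraries, and its place among the 5 and the 6 above is not used as support. HLA-DMA had 3.28, 5.31 and 4.21 TPM in shMTHFD2, against 2.14, 2.17 and 2.53 TPM in shNC (log2 fold change 0.85, adjusted p = 0.111, edgeR). Every gene of this list, CD74 included, was below each of the 4 heavy chains in all 6 libraries, and 5 of the 13 genes were under 1 TPM in all 6 libraries.

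Position was examined because 7 of the 9 genes lie in the major histocompatibility region of chromosome 6, with B2M on chromosome 15 and NLRC5 on chromosome 16. The nearest tested gene on each side of each of the 9, with the 9 themselves skipped, gave 15 different neighbours by the order of the RefSeq gene table. EdgeR called 0 of these 15, against 5.43% of all genes, limma-voom 0, against 4.88%, and DESeq2 1, against 15.0%. An unadjusted p under 0.05 was found for 2, HLA-DOB among them, against 28.7% of all genes. With so few neighbours, nothing is read from these counts. The median log2 fold change of the neighbours was 0.02, with 9 of the 15 above 0. MICA, next to HLA-B and HLA-C and coding for a ligand of the natural killer receptor NKG2D, had 35.1, 41.3 and 27.3 TPM in shMTHFD2, against 33.1, 31.5 and 34.9 TPM in shNC. The groups overlapped around HLA-B as they did at GNL1 beside HLA-E, with 21.6, 23.7 and 24.4 TPM in shMTHFD2 against 22.9, 22.0 and 22.1 TPM in shNC. MICA and GNL1 were named after their values were seen and had the smallest differences of the 15 neighbours. The log2 fold changes of the 15 ran from -0.52 to 0.78. HLA-DOB, beside TAP2, was at 0.66 (SE 0.24, adjusted p = 0.127, edgeR), higher in shMTHFD2 without overlap of the groups.

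Genes with the pattern most like the class I genes were sought among 10278 tested genes with a mean of at least 5 TPM, by the root mean square difference of centred log2 CPM over the 6 libraries. Relative to the mean profile of the 9 genes the 6 nearest included UBE2L6 (0.0419), SP100 (0.0575), PTGR1 (0.0628), SP110 (0.0638) and TSPAN31 (0.0660), where the median candidate was at 0.354. UBE2L6, the E2 enzyme that conjugates the interferon-induced modifier ISG15, had 141, 161 and 188 TPM in shMTHFD2, against 115, 103 and 119.5 TPM in shNC. SP100 and SP110 code for proteins of nuclear bodies, PTGR1 for a prostaglandin reductase and TSPAN31 for a tetraspanin. These genes were picked for their likeness on the same libraries, so their own differences are no further evidence.

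Nearest to HLA-B were PANX2 (0.157), SERPING1 (0.163) and LOX (0.196). SERPING1, the C1 inhibitor of the complement system, had 19.6, 20.1 and 30.3 TPM in shMTHFD2, against 6.74, 6.04 and 9.25 TPM in shNC. Nearest to B2M were LGALS3BP (0.0437), FAM219A (0.0443) and LAMB3 (0.0532), of which LGALS3BP, a secreted galectin-binding glycoprotein, had 748, 783 and 952 TPM in shMTHFD2, against 655, 629.65 and 639 TPM in shNC. Nearest to TAP1, whose profile was almost flat, were GAS2L3 (0.0305), DGKQ (0.0355) and TM4SF1 (0.0371). Nearest to NLRC5 were APBB1 (0.176), TTC9 (0.197) and AKR1C2 (0.207), each with replicate 3 the highest shMTHFD2 library.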

How the data were processed

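RNA-seq of 6 SCC-9 libraries, 3 shMTHFD2 and 3 shNC by the sample labels, was used as 1 table of 17862 genes with Entrez identifiers, of which 17793 are in a human RefSeq gene table. Reads per gene were deposited as estimated counts: 53.0 to 56.0% of values per library were whole within 0.001. The TPM values deposited by the authors are scaled per gene length and library, per the file headers. Which aligner, counter, annotation and strand setting the authors used is not given in the sources used here. Mouse build mm10 is named in the submitters' processing notes for these human samples, so no coordinates of the files were used. Deposited FPKM and normalized counts (12 columns) and 8 columns of averages were not used.

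The 9 genes and the gene lists were chosen with earlier results of these data known. Estimated counts were rounded to whole numbers, filtered with filterByExpr, scaled by TMM and compared by edgeR 4.0.16 (R 4.3.3) with the robust quasi-likelihood F test, no covariate, Benjamini-Hochberg adjustment over 13710 genes and a threshold of 0.05. Each SE was computed as the size of the log2 fold change over the square root of F. The biological coefficient of variation was 16.7%. Levels are TPM, and log2 CPM used a prior count of 2. Precision is limited by 3 libraries per group. No libraries were duplicates: chi-square per degree of freedom was 27.2 to 77.4 within shMTHFD2 and 3.50 to 7.47 within shNC.

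Named genes were the 9, MTHFD2, the most abundant pathway gene of each role and any that passed, the genes nearest in pattern, up to 4 interferon and 3 class II genes by p, and the most abundant gene of each marker list. Other genes named (HLA-G, IFNGR1, MARCHF9, THOP1, NFYC, TMEM127, WWP2, NFKB1, PSMB8, PSMB9, MICA, GNL1 and HLA-DOB) were chosen after their values were seen. Alternatives were DESeq2 size factors, upper quartile scaling, DESeq2 1.42.0, limma-voom (limma 3.58.1), no filter, a minimum mean of 5 CPM, limma-trend on log2(TPM + 1) or log2(TPM + 0.1) for genes with at least 1 TPM in 3 libraries, the replicate number as a block, and each library left out. Total counts without scaling were added after seeing the data. Some results of single genes are not reported here. Promoter letters came from RefSeq. Python 3.11.15, NumPy 2.4.6, pandas 2.3.3 and matplotlib 3.10.9 made tables and figures.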

Additional observations from a re-analysis of the deposited data

How the results depend on the processing

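Over 16 alternatives the 9 genes gave 143 log2 fold changes, with 0 reversals among called genes. Some moved by more than the SE of the reported fit. NLRC5 ran from 0.44 to 1.03 (reported 0.81, SE 0.33) and TAP2 from -0.55 to -0.07 (reported -0.30, SE 0.22). HLA-E ran from 0.44 to 0.76 (reported 0.61, SE 0.16). Of genes not called, TAP1 was at -0.01 without shMTHFD2 replicate 3 and TAPBP at -0.03 without shNC replicate 2. NLRC5 gave no value with the filter of a mean of at least 5 CPM. The 745 genes called over the whole table became 2023 in DESeq2, and 1 to 3651 with 1 library left out. The calls were 407 higher and 338 lower, but 455 and 210 with upper quartile scaling, 449 and 230 with total counts, and 386 and 183 with log2(TPM + 1); these shifted the median of all genes by under 0.1. Among the 9 genes 3 calls became 0 to 5 with 1 library left out. Among other class I pathway genes 0 became 1 (MARCHF9) with DESeq2 size factors, upper quartile scaling, total counts, log2(TPM + 1) or log2(TPM + 0.1), 6 in DESeq2, and 0 to 13 with 1 library left out. Interferon calls, 2 as reported, became 8 in DESeq2 and 0 to 16 with 1 library left out, class II calls, 1 as reported, 0 to 3, and calls among neighbours, 0 as reported, 1 in DESeq2 and 0 to 2. The cause was not tested. With a replicate block, 16 genes were called over the table, 1 of the 9 (HLA-B), 0 interferon genes, 0 other pathway genes and 1 class II gene. Whether the numbers pair the libraries is not given. Deviations from the group means correlated across genes at 0.00074, -0.237 and -0.187 for same-numbered libraries, and at -0.069 to 0.220 for the others. Deviations within groups of 3 depend on each other, so these values cannot decide whether libraries are paired. Differences of low genes such as NLRC5, at 39 to 142 counts, are the least precise.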
